A study of Drosophila melanogaster with 3 samples.

Results

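Zif (CG10267), a DNA-binding protein with C2H2 zinc fingers, was located in the genome of Drosophila melanogaster embryos, and its peaks were described at 9 genes of dosage compensation and sex determination: msl-1, msl-2, msl-3, mle, mof, lncRNA:roX1, lncRNA:roX2, Clamp and Sxl. These are the genes of the male-specific lethal (MSL) complex, of its RNAs and of its regulators, chosen by name. All peak summits inside a gene or within 1 kb of any of its annotated transcription start sites (TSSs) were taken, whatever their signal. The genes, 7 protein-coding and 2 for long noncoding RNAs (lncRNAs), stand among 13945 protein-coding and 1944 lncRNA genes examined in the same way. They held 31 of the 30000 summits in the pooled relaxed list, which keeps weak peaks. Of these, 9 were among the 8630 summits of the stricter set, which was thresholded by IDR (irreproducible discovery rate) to keep peaks of like rank between replicates, and 22 were not.

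Chromatin came from whole embryos of mixed sex, 0 to 24 h old, of flies with a transgene for CG10267 fused to eGFP, and an anti-GFP antibody was used for the precipitation (ChIP-seq). There were 3 biological replicates of this 1 group. No contrast between groups exists, differences between genes within a replicate were not tested, and each error below is the SD over the 3 replicates. Cells of all types and of both sexes were mixed, so a peak at these genes cannot be assigned to males or to females. Peaks record where the tagged protein was enriched, not what the gene's RNA did.

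In flies, males with a single X chromosome raise transcription from it towards the level that females reach with a pair. The MSL complex does this by binding the male X at entry sites rich in GA repeats, spreading to active genes and acetylating histone H4. Females lack the complex because Sxl, an RNA-binding protein made in females only, blocks translation of msl-2 mRNA. Sxl also splices its own transcripts and those of tra, so it is the switch of both sex determination and dosage compensation.

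Zif peaks of the IDR set lay at 5 of the 9 genes, namely Clamp, Sxl, msl-2, roX2 and mof. The genes roX1, msl-1 and mle had weaker peaks, present in the pooled list and in each replicate. A peak at msl-3 was present in replicate 2 only. Signals spanned a wide range, from 1592 at the strongest summit, in Clamp, to 138 at the strongest summit of mle. The signal is the authors' value for each peak, taken here as enrichment over the control library, with no unit of its own.

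Counts of genes with a peak were read against all genes of the same kind. Of the 7 protein-coding members, 4 had an IDR summit, against 6559 of 13945 protein-coding genes (47.0%). Of the 2 lncRNA members, 1 had one, against 380 of 1944 lncRNA genes (19.5%). In the pooled relaxed list the counts were 6 of 7 members, against 62.9% of protein-coding genes, and 2 of 2 members, against 45.2% of lncRNA genes. A relaxed summit in each of the 3 replicates was present at 6 of 7 members, against 58.3% of protein-coding genes, and at 2 of 2 members, against 36.1% of lncRNA genes. With so few members, and with the share of protein-coding members in the IDR set near the background, these counts are not a result about the group.

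**Figure D1:**
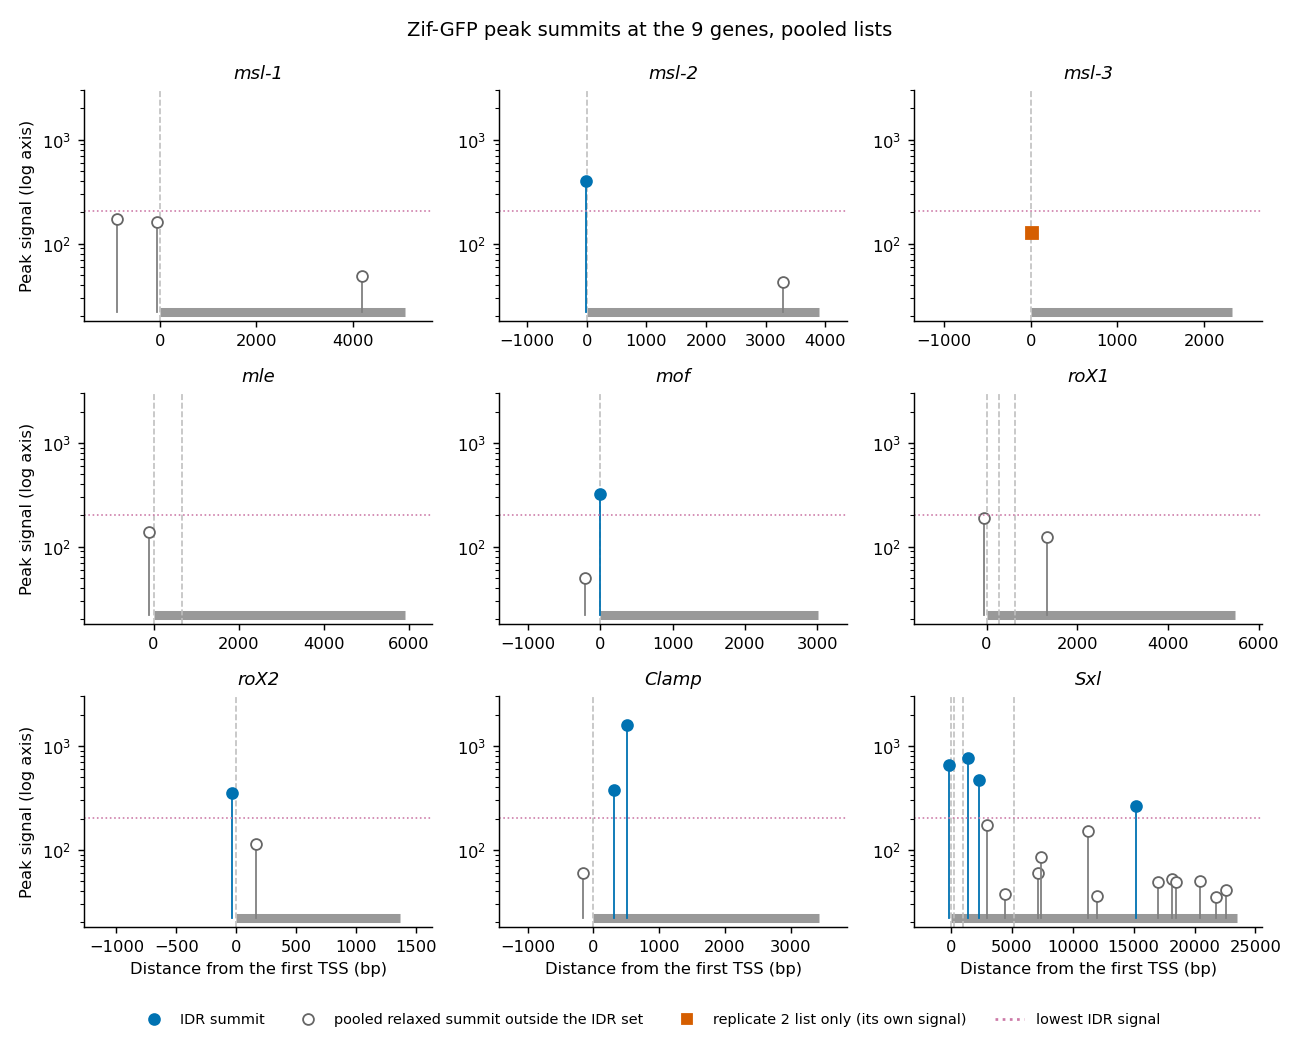
Pooled signal (log axis) of each summit against its distance in bp from the gene's first TSS, 1 panel per gene, with the gene as a grey bar and its TSSs as dashed lines. Filled circles are IDR summits, open circles are weaker summits of the pooled relaxed list, the square is the msl-3 summit of replicate 2 with its own signal, and the dotted line is the lowest IDR signal, 204. Of the 9 genes, 7 had a summit within 150 bp of a TSS in the pooled list, and Sxl had 16 summits along its length.

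For a common scale, the signal of each replicate at a peak was divided by the median signal of that replicate over the IDR peaks, which was 202, 105 and 142 in replicates 1, 2 and 3. A relative signal of 1 is thus that of the median IDR peak. By the pooled signal of the strongest summit, the order of the genes was Clamp, Sxl, msl-2, roX2, mof, roX1, msl-1 and mle. Clamp was above Sxl in 3 of 3 replicates, with a difference in relative signal of 2.15 ± 1.69 (SD, n = 3). The gene mof was above roX1 in 3 of 3 replicates, by 0.238 ± 0.222, but in replicate 2 they were almost equal (0.991 and 0.986). At the strongest pooled summits, each other pair of neighbours in the order kept it in 2 of 3 replicates only. For Sxl that summit was not its strongest in replicate 2. There its promoter peak had a relative signal of 1.76, above the 1.54 of msl-2. The differences were 0.617 ± 1.06 for Sxl over msl-2, 0.121 ± 0.238 for roX2 over mof and 0.104 ± 0.261 for roX1 over msl-1, all smaller than their SD. They were 0.141 ± 0.133 for msl-2 over roX2 and 0.0737 ± 0.0664 for msl-1 over mle. The msl-1 values in this order are those of a summit 16 bp upstream of the TSS of CG10336, not of the summit at its own TSS. Across all bound protein-coding genes the median signal of the strongest IDR peak was 539.9 (interquartile range 344 to 1103), which Clamp and Sxl exceeded and msl-2 (401) and mof (322) did not.

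**Figure D2:**
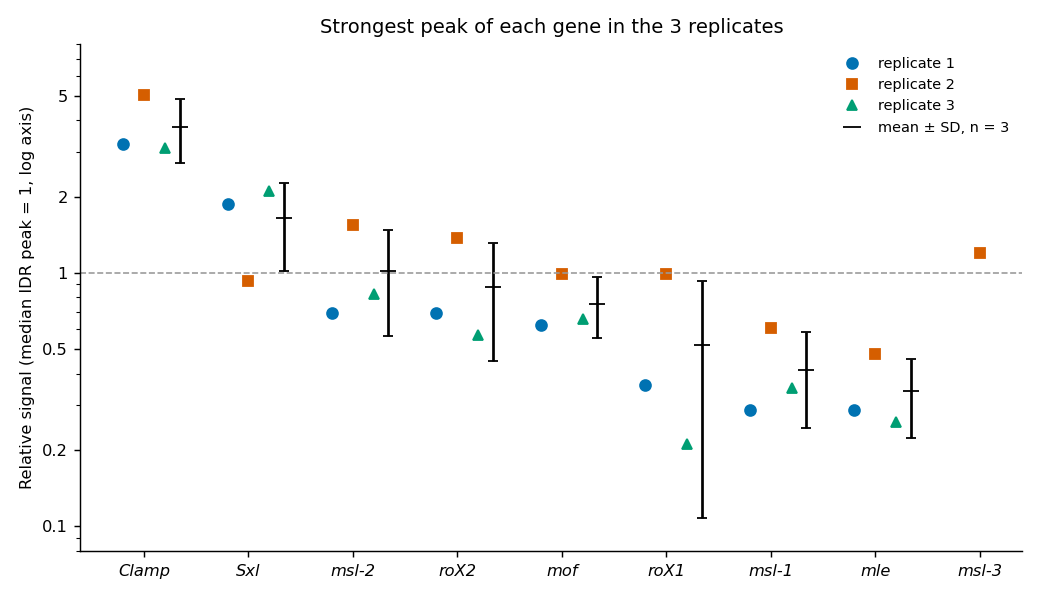
Relative signal (log axis, dashed line at 1, the median IDR peak) in replicates 1, 2 and 3 at the strongest pooled summit of each gene, with the mean and SD of the 3 replicates as bars. For Sxl this is an intronic summit, which was not its strongest in replicate 2. For msl-1 it is the summit near the TSS of CG10336. Clamp lay above all the other genes in each replicate, replicate 2 gave the highest value at every gene but Sxl, and msl-3 had a value in replicate 2 only.

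The subunits of the MSL complex come first. The gene msl-2 (chr2L:3462218-3466112, minus strand) encodes the RING finger subunit that binds DNA at entry sites and is limiting for assembly in males. It had 1 IDR peak (chr2L:3466005-3466275) with a pooled signal of 401, at which 50.6% of the IDR peaks were stronger. The summit lay 11 bp upstream of the msl-2 TSS and also 34 bp upstream of the TSS of ND-PDSW, a gene for a subunit of respiratory complex I on the opposite strand. The peak therefore cannot be assigned to either gene by position. Replicates 1, 2 and 3 had signals of 140.3, 163 and 117 there, or relative signals of 0.693, 1.54 and 0.826 (mean 1.02 ± 0.458, SD, n = 3). Their summits lay 10, 11 and 8 bp upstream of the TSS, so position varied little while replicate 2 was the highest. A weak summit (42.9) in the 3′ UTR completed the list for msl-2.

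The gene mof encodes the acetyltransferase of the complex, which also serves the NSL complex at promoters in both sexes. At mof (chrX:5873840-5876853, minus strand) the IDR peak (chrX:5876748-5876962) had a pooled signal of 322, with 65.2% of the IDR peaks stronger. Its summit lay 5 bp upstream of the TSS. The signals in replicates 1, 2 and 3 were 126, 105 and 93.3, and the relative signals were 0.624, 0.991 and 0.657 (mean 0.757 ± 0.203). The 3 replicates were all at or below the median IDR peak, with replicate 2 the nearest to it. A weaker summit (50.0) lay 209 bp upstream. Beyond the 3′ end of mof by 383 bp, and outside its region, an IDR summit with a signal of 286 lay 100 bp upstream of the TSS of GAA1.

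The sequences at the msl-2 and mof summits are shown because they are the peaks of subunit genes in the IDR set. They are reference sequence of the dm6 build from RefSeq, on the minus strand, 5′ to 3′, and are cut short where longer stretches of UTR begin. Capitals mark the letters CAGCTG and GGTCACAC at msl-2 and CGATA at mof.
msl-2, chr2L:3466083-3466186: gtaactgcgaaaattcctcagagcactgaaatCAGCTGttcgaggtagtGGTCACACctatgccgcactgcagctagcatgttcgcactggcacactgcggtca
mof, chrX:5876824-5876933: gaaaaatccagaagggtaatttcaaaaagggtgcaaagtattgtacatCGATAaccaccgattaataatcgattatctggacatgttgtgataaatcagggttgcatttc
The letters GGTCACAC are the core of motif 1, the element bound by the promoter factor M1BP, CAGCTG is an E-box found at many fly promoters, and CGATA is the element of the insulator protein BEAF-32. At msl-2, a match of GGTCACAC was centred 11 bp upstream of the summit, and a further match, 39 bp downstream, runs past the end of the printed stretch.

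The gene msl-1 encodes the scaffold on which the complex assembles. It (chr2L:18683720-18688800, minus strand) had no IDR peak and 3 relaxed summits. The strongest, with a pooled signal of 172, lay 875 bp upstream of the msl-1 TSS but 16 bp upstream of the TSS of CG10336. The signals there were 58.2, 63.9 and 49.7 in replicates 1, 2 and 3, and the relative signals were 0.288, 0.606 and 0.350 (0.414 ± 0.169). The summit nearest to the msl-1 TSS, 61 bp upstream, had a pooled signal of 161 and replicate signals of 71.0, 48.2 and 48.7, with relative signals of 0.350, 0.457 and 0.343 (0.383 ± 0.0641). These summits were thus of like strength and lay below the IDR minimum of 204. The remaining summit (48.6) was in the 3′ UTR.

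The gene mle encodes an RNA helicase that remodels the roX RNAs so that they join the complex. Its single pooled summit (gene at chr2R:5974857-5980778, minus strand) lay 105 bp upstream of the first of its 2 TSSs, with a pooled signal of 138. The signals were 58.4, 50.3 and 36.7 in replicates 1, 2 and 3, or 0.288, 0.477 and 0.258 as relative signals (0.341 ± 0.118). No replicate reached the level of the median IDR peak. The gene lies between stronger peaks of other genes. An IDR peak with a signal of 453 lay 365 bp beyond its 3′ end, 107 bp upstream of the TSS of BubR1, a spindle checkpoint gene. Another, with a signal of 309.8, lay 1086 bp upstream of the mle TSS and 20 bp downstream of the TSS of Src42A, a tyrosine kinase gene.

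The gene msl-3 encodes a chromodomain protein involved in spreading over active genes. Neither the pooled list nor replicates 1 and 3 had a peak at msl-3 (chr3L:7123213-7125533, minus strand). Replicate 2 had a peak (chr3L:7125252-7125781) with a signal of 126, a relative signal of 1.20 and rank 3382 of 30000. Its summit lay 16 bp downstream of the msl-3 TSS and 388 bp upstream of the TSS of BBS1. Of the 3382 replicate 2 peaks at least as strong, 14 (0.414%) overlapped no pooled peak, and 6 of these overlapped no peak of the other replicates either. At the same relative signal, 1 of 3105 peaks of replicate 1 and 5 of 3238 peaks of replicate 3 overlapped no pooled peak. The peak is thus of a rare kind and rests on 1 library.

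The stretch under the msl-3 summit is shown because this peak was present in a single replicate. It is dm6 reference sequence, minus strand, 5′ to 3′, with the letters TATCGATA and CGATA, on either strand, in capitals.
msl-3, chr3L:7125504-7125592: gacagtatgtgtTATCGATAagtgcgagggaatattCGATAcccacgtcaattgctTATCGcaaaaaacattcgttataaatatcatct
The window of 150 bp to either side of this summit held 1 match of TATCGATA, the DNA replication-related element (DRE), 4 matches of CGATA, of which 2 lie within that TATCGATA, and 1 match of GGTCACAC. It also held 1 match of TATAAA, centred 2 bp downstream of the summit and not in capitals above.

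The RNAs roX1 and roX2 are X-linked noncoding RNAs of the complex that can replace each other, and each gene holds an entry site for it. At roX2 (chrX:11579065-11580432, plus strand) the IDR peak (chrX:11578921-11579204) had a pooled signal of 353, with 58.8% of the IDR peaks stronger. Its summit lay 31 bp upstream of the TSS. The signals in replicates 1, 2 and 3 were 141, 144 and 80.7, and the relative signals were 0.697, 1.37 and 0.568 (0.878 ± 0.429). Replicate 2 was above the median IDR peak, and replicates 1 and 3 were below it. The replicate summits lay 36 bp upstream, 18 bp downstream and 19 bp downstream of the TSS. A relaxed summit of 113 lay 168 bp downstream of the TSS, and its interval overlaps the same replicate peaks.

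Past the 3′ end of roX2, and outside the region used to choose peaks, a further IDR interval (chrX:11580372-11580900) began inside the gene. Its summits lay 112 and 316 bp beyond the end of roX2, with signals of 467 and 319, and 228 and 24 bp upstream of the TSS of nod, which encodes a kinesin-like protein of meiotic chromosomes. The relative signals of this interval were 1.29, 1.28 and 0.800 in replicates 1, 2 and 3 (1.12 ± 0.277). The 2 matches of GAGAGAGA in the roX2 region lay 1152 and 1206 bp downstream of the roX2 TSS, at 327 and 273 bp from the nearer of these summits. The letters GAGAGAGA are the core of the MSL recognition element, to which Clamp also binds.

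At roX1 (chrX:3857230-3862697, minus strand) there were 2 relaxed summits and no IDR peak. The first, 62 bp upstream of the TSS, had a pooled signal of 189.7, just below the IDR minimum of 204. Its signals were 72.8, 104 and 29.9 in replicates 1, 2 and 3, and its relative signals were 0.360, 0.986 and 0.211 (0.519 ± 0.411). Replicate 2 was 3.46 times the mean of replicates 1 and 3, the highest such ratio among the members' summits with a peak in each replicate, and without replicate 2 the mean was 0.285. The other, in an exon 1331 bp downstream of the first TSS, had a pooled signal of 124 and signals of 53.3, 30.9 and 41.9 in the 3 replicates. Its relative signals of 0.263, 0.293 and 0.295 (0.284 ± 0.0178) had the smallest SD among the members' summits with a peak in each replicate. With the replicate peak of nearest summit, replicate 3 had a relative signal of 0.127 there, and the mean was 0.228 ± 0.0887.

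The roX2 promoter stretch and the internal roX1 stretch are shown because they differ in their letters. They are dm6 reference sequence in the direction of the gene (plus strand for roX2, minus strand for roX1). Capitals mark GGTCACAC at roX2 and the letters GAGAG and CGATA, on either strand, at roX1.
roX2, chrX:11578959-11579109: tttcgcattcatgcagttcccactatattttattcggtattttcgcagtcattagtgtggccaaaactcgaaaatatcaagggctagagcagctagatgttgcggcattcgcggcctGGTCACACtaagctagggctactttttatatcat
roX1, chrX:3861291-3861441: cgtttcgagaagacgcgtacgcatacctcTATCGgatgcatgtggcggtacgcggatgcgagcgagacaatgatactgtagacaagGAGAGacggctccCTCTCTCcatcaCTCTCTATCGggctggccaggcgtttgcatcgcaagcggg
Around the internal roX1 summit, 5 matches of GAGAG lay within 150 bp, centred 13, 26, 28, 38 and 117 bp downstream of it. No match of GAGAGAGA was in this window, and none was in the whole roX1 region. At the roX1 summit 62 bp upstream of the TSS, no match of any motif searched was found.

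Clamp, a zinc finger protein that binds GA repeats and brings the MSL complex to the X, is encoded by the gene with the strongest peak of the group. The IDR interval at Clamp (chr2L:22168331-22169443, within and upstream of the gene at chr2L:22165720-22169143, minus strand) held 2 IDR summits and a weak summit of 59.3. The stronger lay 518 bp downstream of the TSS in the 5′ UTR, with a pooled signal of 1592, and 8.78% of the IDR peaks were stronger. Its signals in replicates 1, 2 and 3 were 653, 529 and 440.2, with relative signals of 3.23, 5.02 and 3.10 (3.78 ± 1.07, SD, n = 3). It ranked 861, 599 and 931 among the 30000 peaks of the replicates, so all 3 placed it high. Their summits at 22168635, 22168635 and 22168652 lay within 30 bp of the pooled summit at 22168625. The weaker summit, 319 bp downstream of the TSS in an intron, had a pooled signal of 378. The nearest replicate summits gave 144 in replicate 2 and 127 in replicate 3, while replicate 1 had no separate summit there. Within 150 bp of the Clamp TSS only replicate 1 had a summit, 94 bp upstream, with a signal of 68.4. Just outside that window, replicate 2 had a summit 180 bp upstream (61.1), and the weak pooled summit of 59.3 lay 157 bp upstream.

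Sxl (chrX:7074550-7098053, minus strand) had the most summits, 4 in the IDR set and 16 in the pooled list. It is 23504 bp long and has 4 annotated TSSs, which lie 0, 285, 987 and 5170 bp downstream of the first, with 18, 1, 2 and 4 transcripts. The gene is known to use an early promoter, on in young female embryos, and a maintenance promoter upstream of it. The annotation used here does not name them. Among the 1013 protein-coding genes of at least 20000 bp, 662 (65.4%) had an IDR summit and the median was 1.00 IDR summit. Of these long genes, 23.9% had at least 4 IDR summits, as Sxl did, and 25.7% had at least 16 pooled summits. The number of peaks in Sxl was thus in the upper part of what long genes showed.

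The strongest Sxl peak (chrX:7096430-7096865) lay in an intron, 1415 bp downstream of the first TSS and 428 bp downstream of the TSS of 2 transcripts. Its pooled signal was 768, with 22.1% of the IDR peaks stronger. The signals were 379, 98.3 and 299.9 in replicates 1, 2 and 3, and the relative signals were 1.87, 0.931 and 2.11 (1.64 ± 0.624). Replicate 2 was the lowest here, and without it the mean was 1.99. The next peak (chrX:7097947-7098356), 124 bp upstream of the first TSS, had a pooled signal of 661. Its signals of 277, 186 and 199.8 gave relative signals of 1.37, 1.76 and 1.41 (1.51 ± 0.218). This promoter peak had the smallest SD of the 4 IDR peaks of Sxl, and all 3 replicates were above the median IDR peak. In replicate 2 it was the strongest peak of the gene, and in replicates 1 and 3 the intronic peak was.

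A further intronic Sxl peak (chrX:7095554-7095916), 2273 bp downstream of the first TSS, had a pooled signal of 470.1. Its signals were 266, 80.1 and 119.6 in replicates 1, 2 and 3, or 1.31, 0.759 and 0.842 as relative signals (0.971 ± 0.299). The last IDR peak (chrX:7082736-7082970), also intronic and 15200 bp downstream, had a pooled signal of 266 with 79.1% of the IDR peaks stronger. Its signals were 102, 109 and 72.6, and its relative signals were 0.504, 1.04 and 0.511 (0.683 ± 0.305), with replicate 2 the highest. The peaks at 1415 and 2273 bp thus lay between the TSS at 987 bp and that at 5170 bp, and the nearest summit to that last TSS was a weak one. It lay 744 bp upstream of that TSS, with a pooled signal of 37.3, and only replicate 1 had a peak there.

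The other 12 Sxl summits were outside the IDR set. The strongest, 2980 bp downstream of the first TSS, had a pooled signal of 175 and relative signals of 0.520, 0.127 and 0.423 in replicates 1, 2 and 3. A summit of 150.3 at 11263 bp had relative signals of 0.393 in replicate 1 and 0.320 in replicate 3, and no peak in replicate 2. Summits of 60.1 and 86.1 lay at 7144 and 7387 bp, again with no peak in replicate 2. The rest, from 4426 to 22584 bp, had signals of 35.5 to 51.8, near the lowest value in the pooled list, 34.1. Of the 12, 3 overlapped a peak in all 3 replicates, 5 in 2 of them and 4 in 1.

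**Figure D3:**
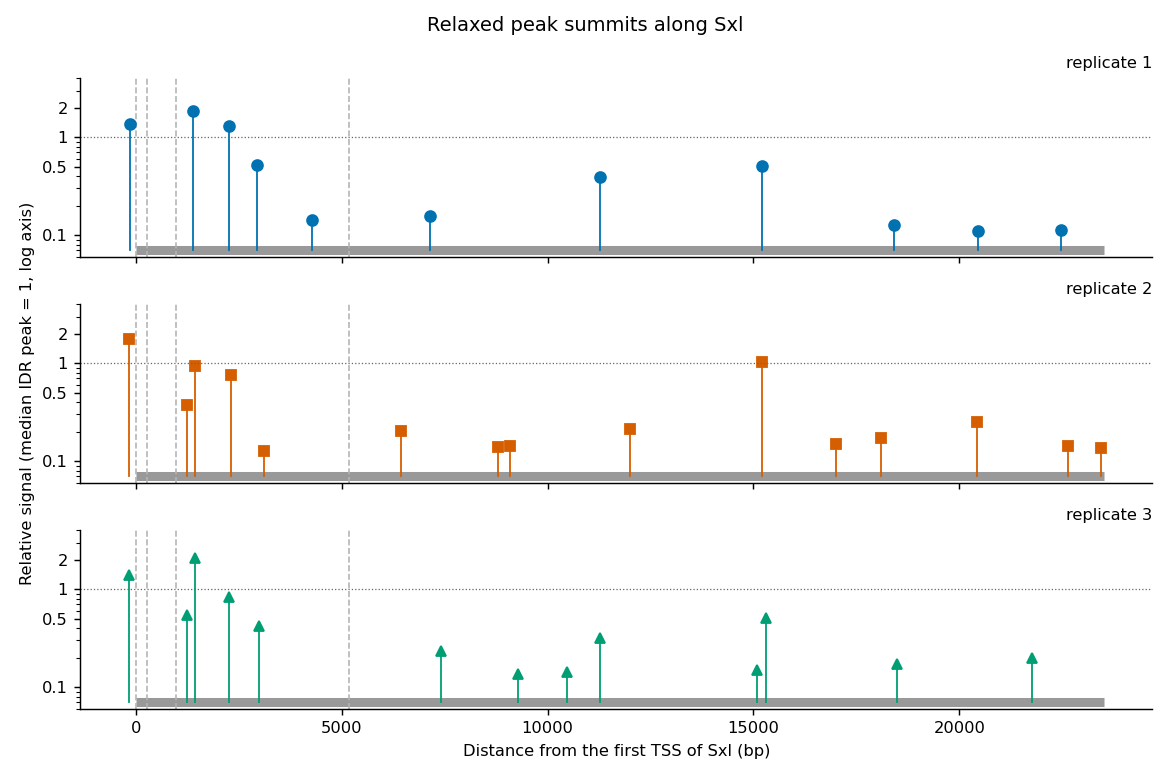
Relative signal (log axis, dotted line at 1) of every relaxed summit along Sxl in replicates 1, 2 and 3, against the distance in bp from the first TSS, with the gene as a grey bar and its TSSs as dashed lines. Replicates 1 and 3 had their highest summit at about 1415 bp, at 1.87 and 2.11, while replicate 2 had its highest at the promoter, at 1.76.

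Stretches under the strongest Clamp summit and 2 Sxl summits are shown because they share letters or hold a promoter motif. They are dm6 reference sequence on the minus strand, 5′ to 3′. Capitals mark CAGTGTTG at Clamp and at the last intronic Sxl summit, and GTGTGACC, the reverse complement of GGTCACAC, at the Sxl promoter.
Clamp, chr2L:22168614-22168700: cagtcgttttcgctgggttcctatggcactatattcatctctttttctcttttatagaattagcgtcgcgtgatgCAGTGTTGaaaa
Sxl, 124 bp upstream, chrX:7098102-7098252: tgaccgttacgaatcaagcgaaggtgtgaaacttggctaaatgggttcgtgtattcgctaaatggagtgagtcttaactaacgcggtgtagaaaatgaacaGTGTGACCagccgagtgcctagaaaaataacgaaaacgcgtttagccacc
Sxl, 15200 bp downstream, chrX:7082778-7082928: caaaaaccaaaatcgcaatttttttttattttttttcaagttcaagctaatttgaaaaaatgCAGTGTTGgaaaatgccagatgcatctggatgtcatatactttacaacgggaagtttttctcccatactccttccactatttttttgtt
The letters CAGTGTTG were centred 3 bp downstream of the Clamp summit and 10 bp upstream of the Sxl summit. This string was added to the search after the data were seen. Neither its presence at both nor its share over all IDR summits is thus support for anything. Over all 8630 IDR summits it lay within 30 bp of 2.12% of them, against 0.197% of stretches of equal length centred 300 bp to either side. In the same comparison the DRE gave 2.69% against 0.301%, the motif 1 core 1.51% against 0.272%, the BEAF-32 element 14.6% against 7.41%, and the TATAAA letters 14.9% against 6.11%. The E-box gave 3.02% against 2.76%, the short GA repeat GAGAG gave 4.46% against 8.75%, and the long one, with 8 letters, gave 0.185% against 0.771%.

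Motif letters were counted on both strands in windows of 301 bp centred on the 9 IDR summits. GGTCACAC was in 4 of the 9 windows, namely those of msl-2, roX2, the Sxl promoter and the Sxl summit at 15200 bp. It was in 7.50% of all IDR windows, in 16.3% of the IDR windows within 150 bp of a TSS and in 6.32% of windows at protein-coding TSSs. CGATA was in 2 of 9 windows, against 44.2% of all IDR windows, 63.0% of those near a TSS and 46.0% of TSS windows. TATCGATA, which contains CGATA, was in 0 of 9, against 9.41%, 19.6% and 7.09% in the same order. CAGCTG was in 2 of 9, against 15.9%, 23.6% and 17.9%, and TATAAA was in 2 of 9, against 48.1%, 44.7% and 37.1%. CAGTGTTG, chosen after the data were seen, was in 2 of 9, against 5.62%, 9.82% and 3.01%.

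The GA repeats to which Clamp and the MSL complex bind were looked for in the same windows. GAGAGAGA was in 0 of the 9 windows, against 2.61% of all IDR windows, 1.70% of those near a TSS and 3.42% of TSS windows. The shorter GAGAG, which GAGAGAGA contains, was in 0 of 9, against 29.1%, 23.1% and 33.6%. In the whole regions of the 9 genes, GAGAGAGA had matches at msl-1, mle, roX2 and Sxl. A single one lay within 150 bp of a pooled summit, at 45 bp from a weak Sxl summit (49.0). A run of 4 overlapping matches lay 217 to 223 bp upstream of the Sxl TSS at 987 bp, at 645 to 651 bp from the strongest Sxl summit. A match is a description of the letters and not a site.

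**Figure D4:**
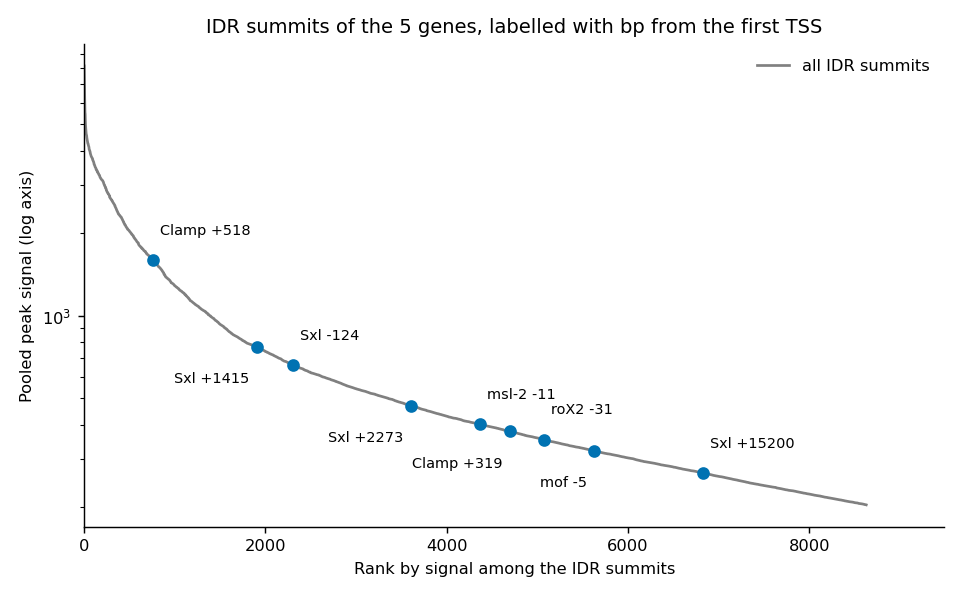
Pooled signal (log axis) of all 8630 IDR summits by rank (line), with the 9 summits of the 5 genes as points, labelled with their distance in bp from the first TSS. The points run from rank 759 for Clamp to rank 6827 for the Sxl summit at 15200 bp, with 4 above and 5 below the median IDR signal of 405.

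Summits near a TSS were compared over the lists. In the pooled list 7 of the 9 genes had a summit within 150 bp of a TSS, all of them upstream, by 5 to 124 bp. That is 5 of 7 protein-coding members, against 40.5% of protein-coding genes, and 2 of 2 lncRNA members, against 11.7% of lncRNA genes. Clamp, whose weak summit lay 157 bp upstream, and msl-3 were without one. In replicates 1, 2 and 3 the number was 8, 7 and 7 of 9. The share over all genes was not computed for the replicate lists, so nothing is read from these 3 counts. Sxl had none in replicate 2, where the summit of its promoter peak lay farther upstream.

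The balance between promoters and other regions was computed for replicate 2 only. Replicate 2 differed in it from the mean of replicates 1 and 3. At IDR summits within 150 bp of a TSS, its relative signal was 1.47 times the mean of replicates 1 and 3 (median of 3483 summits, interquartile range 1.13 to 1.74). Farther than 500 bp from any TSS it was 0.639 times that mean (median of 3401, 0.527 to 0.799). The promoter summits of the members were 3.46 (roX1), 2.16 (roX2), 2.03 (msl-2), 1.74 (mle), 1.55 (mof), 1.32 (msl-1) and 1.27 (Sxl) times it. The intronic Sxl summits at 1415, 2273 and 2980 bp were 0.468, 0.705 and 0.270 times it. Clamp at 518 bp (1.59), Sxl at 15200 bp (2.04) and roX1 at 1331 bp (1.05) lie farther than 500 bp from a TSS of their gene and were above the upper quartile of such summits. So was msl-1 at 875 bp upstream (1.90), which is close to the TSS of CG10336. Among the strongest 8630 peaks of each replicate, 4, 6 and 4 of the 7 protein-coding members had a summit in replicates 1, 2 and 3, against 45.9%, 48.9% and 43.8% of protein-coding genes. Of the 2 lncRNA members 1, 2 and 1 had one, against 19.8%, 17.8% and 19.1% of lncRNA genes. The member without one in replicate 2 was mle, and msl-1 had one only near the TSS of CG10336. In the stronger part of the IDR set, 4315 summits, the counts were 2 of 7, against 30.7%, and 0 of 2, against 11.4%. The part of this balance in the values of single members was not tested.

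**Figure D5:**
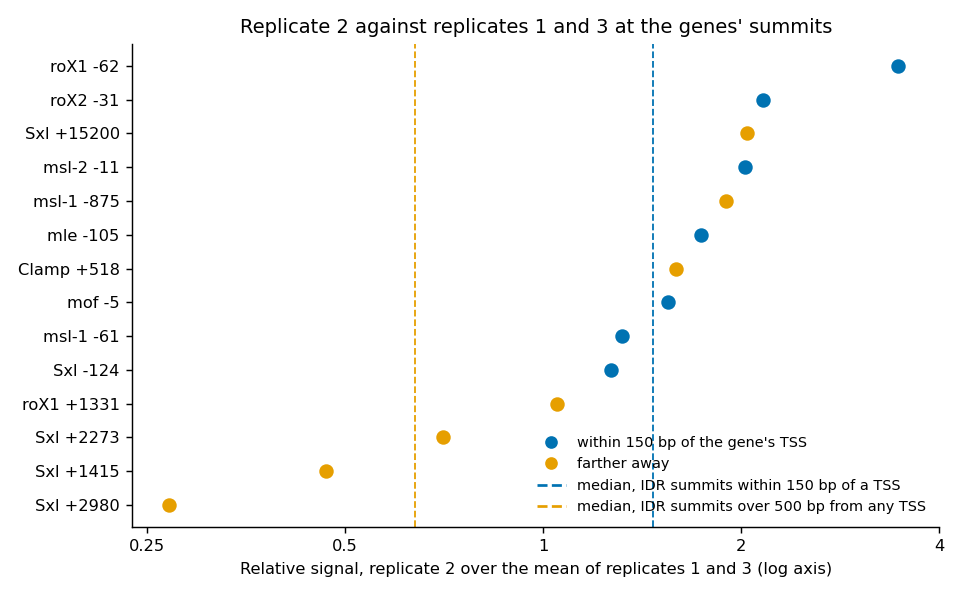
Relative signal in replicate 2 over the mean of replicates 1 and 3 (log axis) at summits of the members. Labels give the distance in bp from the first TSS. Shown are summits with a peak in each replicate and the highest −log10 q value. The Clamp summit at 319 bp, whose pooled signal was 0.233 times the sum over the replicates, was left out. Blue points lie within 150 bp of the gene's TSS and orange points farther away; the dashed lines are the medians over the IDR summits, 1.47 within 150 bp of a TSS and 0.639 farther than 500 bp from any. The points run from 0.270 in Sxl to 3.46 at roX1.

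Other genes of the pathway were looked up from 5 lists. An IDR summit in the gene or within 1 kb of a TSS was found at 30 of their 38 genes (78.9%), beside 47.0% of all protein-coding genes. A relaxed summit in each replicate was found at 33 of the 38, beside 58.3% of all protein-coding genes. The share of 47.0% also stands beside the IDR count of each list below. Gene length was not matched, and nothing particular to the lists is read from these shares. Upstream of Sxl, 4 of the 9 genes that count X chromosomes or act in the early switch had an IDR summit. They were gro, for a corepressor (signal 4297, relative signal 10.1 ± 3.37), her, for a zinc finger protein (1611, 3.74 ± 1.37, shared with Trpgamma), da, for the bHLH partner of the X signal proteins (535, 1.29 ± 0.252), and emc, for an inhibitor of bHLH proteins (314, 0.612 ± 0.351). The X-linked signal genes sc, run, sisA and upd1, and the autosomal repressor gene dpn, had none. The pooled list had weak summits at dpn (132), sc (64.1) and run (40.2) and none at sisA and upd1.

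Of 9 genes for Sxl splicing and for the m6A mark that assists it, 8 had an IDR summit. The strongest were at snf, for a snRNP protein (signal 2441, relative signal 5.73 ± 1.87, shared with Cdk7), Hakai (1901, 4.41 ± 1.13), Mettl3, for the methyltransferase (952, 2.17 ± 0.530, shared with KrT95D), and fl(2)d, for another component of the writer complex (853, 1.98 ± 0.226, shared with CG13339). The gene vir was without any peak. The effectors downstream, 5 of 5, had IDR summits of modest height. The strongest were at dsx (472), tra (376, 0.881 ± 0.326), ix (375, 0.853 ± 0.0821, shared with CG12384) and fru (335, 0.722 ± 0.142). At the dsx summit, relative signals were 1.05 in replicate 2 and 1.72 in replicate 3, and replicate 1 had no peak.

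Of the 6 NSL genes, whose products work with MOF, 4 had an IDR summit. These were Rcd5 (signal 3100.2, relative signal 7.35 ± 2.63, shared with CG11593), nsl1 (678, 1.55 ± 0.351), MBD-R2 (353, 0.792 ± 0.0748) and wds (260.1, 0.624 ± 0.183, shared with CG13760). Rcd1 had a relaxed summit only (149, shared with pea), and dgt1 had none. Of 9 further chromatin and RNA partners all 9 had one, led by Trl, which encodes GAGA factor (3801, 8.15 ± 1.93), the gene of the heterochromatin protein HP1 (3691, 8.78 ± 2.95, shared with Ssb-c31a), JIL-1, a histone kinase gene (2335, 5.24 ± 1.86), and Unr, whose product acts with Sxl on msl-2 mRNA (1794, 4.19 ± 0.872). The peak at Trl lay 1523 bp from a TSS and was lower in replicate 2 (5.93) than in replicates 1 (9.07) and 3 (9.44).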

How the data were processed

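The data were ChIP-seq peaks of 3 biological replicates. The size range of the sonicated fragments was 200 to 800 bp and the assembly dm6, per the labels. No source used here names the aligner, the peak caller or the IDR threshold, and the control library was not analysed here. The authors deposited a relaxed narrowPeak list per replicate, a pooled relaxed list and an IDR set. Each deposited peak has a signal value, which was not normalised between lists, and a −log10 q value, whose maximum of 4.41 was reached at every IDR summit of the members, so peaks were ranked by signal. The lists hold no read counts, so the depth is unknown and no counting interval could be given. Per the file notes, the pooled list and the IDR set came from replicates 2 and 3. At the 14 summits in the plot of replicate 2 against the others, the pooled signal was 0.918 to 1.01 times the sum over all 3 replicates. It was 1.42 to 2.38 times the sum over replicates 2 and 3. Summits where the pooled signal was a small part of the sum over all 3 were left out of that plot. The Clamp summit at 319 bp (0.233) was among them, so these ranges were in part set by the choice of summits.

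Genes and TSSs were those of Ensembl release 115 on 6 chromosomes, without genes of transposable elements; the 9 members had the same start and end in the RefSeq table. A peak was assigned to a gene by its summit. As replicate value, a peak took the highest signal among the relaxed peaks that overlapped it, so summits that share an interval share it. Sequences came from the RefSeq dm6 genome. Calculations used Python 3.11.15, pandas 2.3.3, NumPy 2.4.6 and matplotlib 3.10.9, and the assignment was tested on simulated peaks. No test was made.

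The members and lists were chosen with earlier results of these data known. All 9 members were named whatever their values, with each IDR summit, the strongest weaker summit of each gene and all weaker summits of roX1, roX2 and Sxl. From each list, up to 4 genes with the strongest IDR peak and every unbound gene were named. Other weak summits, those just outside a gene's region and the string CAGTGTTG were added after their values were seen. Flacc and Mgtor were matched under the annotation's spelling. The alternatives were assignment by overlap of at least 1 bp, a TSS window of 500 bp, no gene body, the stronger part of the IDR set, each replicate alone, leaving out each replicate, the nearest replicate summit and another scaling.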

Additional observations from a re-analysis of the deposited data

How the results depend on the processing

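Of the 9 genes, 5 had an IDR summit. The count was 2 in the stronger part of the IDR peaks (4315 summits), where Clamp and Sxl were left, and 8 among the strongest peaks of replicate 2 alone, where roX1, msl-1 and msl-3 were added. There msl-1 was added through the peak near the TSS of CG10336 (rank 7063), while the summit at its own TSS ranked 9042. The count was 5 in replicates 1 and 3 alone, with a TSS window of 500 bp and without the gene body. It was 6 with assignment by overlap, which adds mle through the peak at Src42A. The cause of the difference in replicate 2 was not tested. The counts of genes with a pooled relaxed peak and with one in each replicate were 8 under every setting run. Leaving out each replicate in turn had to give 8, because msl-3 had a peak in replicate 2 only, so that check was not informative. Without replicate 2 the relative signal of roX1 was 0.285, against 0.519 with all 3; no other member's value moved by over 1.5 times when a replicate was left out. With 3 replicates a mean without 1 of them cannot leave the range of 1 SD, so that range was not informative. Dividing by the median of all relaxed peaks moved all 8, for example to 15.0 at Clamp and 1.35 at mle, by its construction. No paired analysis was possible because no second group exists; differences between genes within replicates are given with their SD. Depth is unknown, so the absence of a peak does not show that Zif was absent.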
